A study of Homo sapiens with 4 samples.

Results

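The family of miR-148 and miR-152 is a group of microRNAs made from 3 human genes, MIR148A, MIR148B and MIR152. Its members were taken by name from a table of small RNA reads of HCT116 cells: hsa-miR-148a-3p, hsa-miR-148a-5p, hsa-miR-148b-3p, hsa-miR-148b-5p and hsa-miR-152-3p. These are 5 of the 1644 miRNA names and 85 of the 12689 end isoforms in the table, where an isoform is defined by where its reads start and stop. The opposite arm of MIR152, miR-152-5p, also had 5 isoforms in the table and is given beside the members. HCT116 is an established line of human colon carcinoma cells, and 1 small RNA library was sequenced for each of 4 transfections. The empty vector library came from cells with empty pcDNA3. The wild-type library came from cells with plasmids of pri-mir-30a, pri-mir-142, pri-mir-30d, pri-mir-576, pri-mir-885, pri-mir-128-1, pri-mir-342, pri-mir-200b and pri-mir-16-1. The mutant 1 library came from cells with variants of these pri-miRNAs and the same pri-mir-16-1. The mutant 2 library came from cells with a pri-mir-342 variant, pri-mir-16-1 and empty vector, if the mutant labels follow the order in which the plasmid mixtures are listed. No plasmid encoded a family member, so that all reads of the family came from the cells' own genes, and all 4 groups shared the same cell line and vector backbone.

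A primary miRNA transcript is cut by DROSHA to a hairpin and then by DICER to a duplex of a 5p and a 3p arm. One arm, the guide, is kept by an Argonaute protein, and its bases 2 to 8, the seed, pair with target mRNAs. The other arm, the passenger, is mostly degraded. In a 3p arm the 5p-end, and with it the seed, is set by DICER and the 3p-end by DROSHA, whereas in a 5p arm DROSHA sets the 5p-end and DICER the 3p-end. The guides of the family of miR-148 and miR-152 are the 3p arms, and DNMT1, a DNA methyltransferase, and HLA-G, an immune regulator, are known targets.

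The mature sequences show what the guides share and where they differ. They are from RefSeq (GRCh38.p14), which held 4 of the 5 members and miR-152-5p, with the seed in capitals.
hsa-miR-148a-3p: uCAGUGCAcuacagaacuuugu
hsa-miR-148b-3p: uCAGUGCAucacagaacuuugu
hsa-miR-152-3p: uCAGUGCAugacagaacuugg
hsa-miR-148b-5p: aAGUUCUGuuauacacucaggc
hsa-miR-152-5p: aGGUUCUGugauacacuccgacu

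The 3 guides had the seed CAGUGCA, which none of the other human mature sequences among the 2370 in the RefSeq table had. Counted from 1 at the 5′ end, miR-148a-3p and miR-148b-3p differed by C9U and U10C, that is at 2 of 22 positions. miR-148b-3p and miR-152-3p differed by C10G and U20G over 21 positions. miR-148a-3p and miR-152-3p differed by C9U, U10G and U20G. Each mature sequence had 1 exact match in the hg38 genome. The differences at positions 9 and 10 lie inside the reads, where a mismatch was not tolerated, so reads of the 3 guides could be assigned to 1 gene each. U20G lies near the 3p-end, where mismatches were tolerated. How far the tolerance reached is not given in the sources used here, and whether misread miR-148b-3p molecules contributed to the few miR-152-3p reads was not tested.

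The hairpins are shown because their shape sets where the cuts fall, with the mature arms of the RefSeq table in capitals.
MIR148A: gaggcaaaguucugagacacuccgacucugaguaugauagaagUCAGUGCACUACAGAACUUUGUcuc
MIR148B: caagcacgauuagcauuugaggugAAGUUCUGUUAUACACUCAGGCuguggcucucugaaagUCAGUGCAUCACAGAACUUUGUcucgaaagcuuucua
MIR152: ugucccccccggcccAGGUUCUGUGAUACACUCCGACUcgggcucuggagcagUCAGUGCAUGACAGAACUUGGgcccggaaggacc

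MIR148A lies at chr7:25949919-25949986 on the minus strand, in intron 1 of a long non-coding RNA gene of the GENCODE release 44 annotation. MIR148B lies at chr12:54337216-54337314 on the plus strand, in intron 1 of COPZ1, which encodes a subunit of the coatomer vesicle coat. MIR152 lies at chr17:48037161-48037247 on the minus strand, in intron 1 of COPZ2, a paralog of COPZ1. In the minimum free energy fold of RNAfold, MIR152 was the most stable hairpin (-47.2 kcal/mol), followed by MIR148B (-31.2 kcal/mol) and MIR148A (-27.9 kcal/mol), but the entries differ in length (87, 99 and 68 nt). Guide position 7, in the seed, was unpaired in all 3 predicted hairpins. Position 10 was unpaired in miR-148b-3p and miR-152-3p, and positions 8 and 11 in miR-148a-3p.

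The libraries held 14544516 (empty vector), 17364117 (wild type), 19834361 (mutant 1) and 17136599 (mutant 2) miRNA reads. Reads of miRNAs that no plasmid encodes, here called untransfected, made up 92.0%, 70.5%, 70.7% and 88.3% of them. Levels are therefore given per 1000000 untransfected miRNA reads (RPM). miR-16-5p, by which the authors scaled, is itself encoded by a plasmid in all libraries but the empty vector one. The 5 members made up 2.50%, 2.38%, 2.33% and 2.45% of the untransfected reads in the same order. With 1 library per transfection no value has a replicate check, p-values were not computed, and the 95% intervals cover counting error only. Levels of different miRNAs also depend on how well each is ligated and amplified, which was not measured. miR-200c-3p and miR-141-3p, which are typical of epithelial cells such as the colon line HCT116, were present at 8914 to 9898 and 10014 to 12683 RPM over the 4 libraries. Both were picked after the table was seen, and other epithelial miRNAs were not examined as such a check.

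miR-148a-3p, the main guide, was among the most abundant miRNAs of these cells. Its level was 20048 RPM with the empty vector and 18526 (wild type), 18205 (mutant 1) and 18997 (mutant 2) in the others, from 226795 to 287510 reads. It ranked between 9th and 13th of the 1315 to 1354 untransfected miRNAs detected in a library. The lowest and highest level were 1.10-fold apart.

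miR-148b-3p, the second guide, was at 4068 RPM in the empty vector, 4450 in the wild-type, 4502 in the mutant 1 and 4703 in the mutant 2 library. In RPM the empty vector library was the lowest of the 4 and the mutant 2 library the highest, and they were 1.16-fold apart. This order depended on the scaling. By all miRNA reads the wild-type library was the lowest, at 0.838 of the empty vector one. By miR-16-5p reads the mutant 2 library was the lowest, at 0.471 of it. miR-152-3p was far less abundant, at 31.1 RPM with the empty vector (95% interval, 28.2 to 34.2), 35.5 (32.2 to 38.9) in the wild-type, 26.2 (23.6 to 29.0) in the mutant 1 and 33.2 (30.4 to 36.3) in the mutant 2 library. These levels rest on 416, 434, 367 and 503 reads. The interval of the mutant 1 library, the lowest, overlapped that of the empty vector library but not those of the wild-type and mutant 2 libraries. The empty vector, wild-type and mutant 2 intervals overlapped each other.

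Each passenger was below the guide of its own locus, but miR-148a-5p and miR-148b-5p were above the guide miR-152-3p. miR-148a-5p was at 522, 478, 312 and 477 RPM in the empty vector, wild-type, mutant 1 and mutant 2 libraries. Its level in the mutant 1 library was below the other 3, whose range was 477 to 522. miR-148b-5p was at 291, 346, 296 and 325 RPM in the same order, with the empty vector and mutant 1 libraries at the lower end. miR-152-5p was at 9.72, 6.13, 5.99 and 8.39 RPM, from only 130, 75, 84 and 127 reads. In each library the order was miR-148a-3p, miR-148b-3p, miR-148a-5p, miR-148b-5p, miR-152-3p and miR-152-5p. Within the mutant 1 library miR-148a-5p (303 to 322) and miR-148b-5p (287 to 305) had overlapping intervals, and the other neighbours in any library did not.

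**Figure D1:**
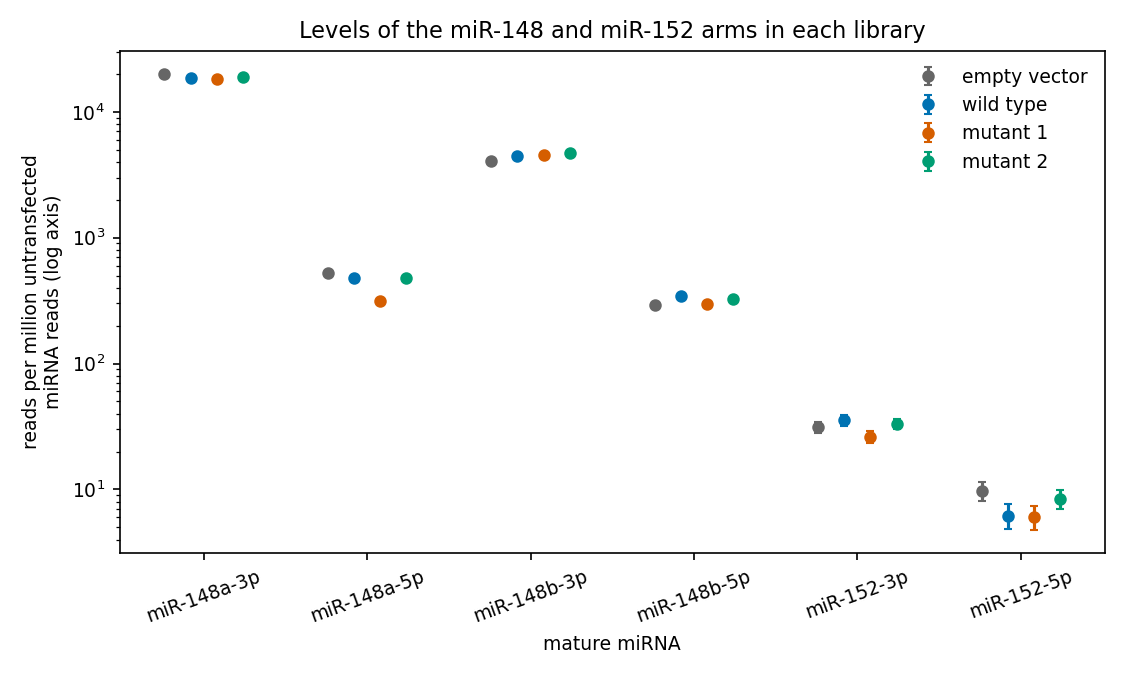
Level of each arm of the family of miR-148 and miR-152 in the 4 libraries, in RPM on a log axis; points are single libraries and bars are exact Poisson 95% intervals. The guides miR-148a-3p (18205 to 20048) and miR-148b-3p (4068 to 4703) stand above the other arms in every library, and miR-148a-5p is lowest in the mutant 1 library (312).

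Because the guides carry the same seed, their shares of the guide reads give the make-up of the seed family within a library, without any scaling. miR-148a-3p made up 83.0% of the guide reads with the empty vector (Wilson 95% interval, 82.9 to 83.2%), 80.5% in the wild-type, 80.1% in the mutant 1 and 80.0% in the mutant 2 library. miR-148b-3p made up 16.8%, 19.3%, 19.8% and 19.8% in the same order. miR-152-3p made up 0.129%, 0.154%, 0.115% and 0.140%. The ratio of miR-148a-3p to miR-148b-3p reads was thus 4.93 (4.88 to 4.97) with the empty vector and 4.16 (4.12 to 4.20), 4.04 (4.01 to 4.08) and 4.04 (4.01 to 4.07) in the wild-type, mutant 1 and mutant 2 libraries. The empty vector library had the highest ratio, beyond counting error. By that measure the wild-type library also stood apart from both mutant libraries. The log2 ratios of single untransfected miRNAs to the empty vector library had standard deviations of 0.397 (wild type), 0.490 (mutant 1) and 0.367 (mutant 2). How far ratios between other miRNAs moved, and whether another empty vector library would have the highest ratio, was not tested.

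The libraries were then compared in pairs, to see whether transfection of other pri-miRNAs went with a change in the family. None of the 5 members differed by more than 2-fold in any of the 5 comparisons. Among all untransfected miRNAs that averaged 50 or more reads, 1.91% did so between the wild-type and empty vector libraries (9 of 471), 3.82% between mutant 1 and empty vector (18 of 471), 1.44% between mutant 2 and empty vector (7 of 486), 1.49% between mutant 1 and wild type (7 of 470) and 0.626% between mutant 2 and wild type (3 of 479). A count of 0 in 5 lies near these shares. These comparisons share libraries, 3 of them the empty vector one and 3 the wild-type one, and are not independent.

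By RPM, the guides were close to their empty vector levels. The ratio of the wild-type to the empty vector library was 0.924 (0.919 to 0.929) for miR-148a-3p, and 67.7% of the untransfected miRNAs were at least as far from 1. It was 1.09 (1.08 to 1.11) for miR-148b-3p, with 64.5% at least as far, and 1.14 (0.997 to 1.30) for miR-152-3p, with 52.9%. Between mutant 1 and empty vector the ratio was 0.908 (0.903 to 0.913) for miR-148a-3p, 1.11 (1.09 to 1.12) for miR-148b-3p and 0.842 (0.731 to 0.968) for miR-152-3p. Between mutant 2 and empty vector it was 0.948, 1.16 and 1.07. miR-148a-3p was below the empty vector library in these 3 comparisons under all 5 scalings tried. Its ratios were 0.451 (wild type), 0.438 (mutant 1) and 0.386 (mutant 2) by miR-16-5p reads, and 0.708, 0.698 and 0.910 by all reads. miR-148b-3p was above the empty vector library only with scaling by untransfected reads, TMM or the median of ratios, and in the mutant 2 library also by all reads. It was below it by miR-16-5p reads throughout and by all reads in the wild-type and mutant 1 libraries. miR-152-3p was below the empty vector library in mutant 1 under all 5 scalings, but its ratio turned to 0.556 by miR-16-5p reads and 0.874 by all reads in the wild-type library, and to 0.436 by miR-16-5p reads in the mutant 2 library. Between the mutant 1 and wild-type libraries, miR-152-3p had a ratio of 0.738 (0.642 to 0.848), which 28.1% of untransfected miRNAs equalled or exceeded in distance from 1.

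Among the members, miR-148a-5p in the mutant 1 library was farthest from the other libraries. Its ratio was 0.598 (0.576 to 0.621) to the empty vector library and 0.652 (0.627 to 0.679) to the wild-type library. It was below 1 under all 5 scalings in both comparisons. Of the untransfected miRNAs, 11.5% and 12.6% were at least as far from 1. The median log2 ratio of the untransfected miRNAs was -0.15 between mutant 1 and wild type, and miR-148a-5p lay 0.47 below that median on the log2 scale. In the mutant 2 library its ratio to the wild-type library was 0.997 (0.963 to 1.03). miR-152-5p, outside the members and with few reads, had ratios to the empty vector library of similar size. They were 0.616 (0.468 to 0.811) in the mutant 1 and 0.631 (0.475 to 0.838) in the wild-type library, with 13.4% and 7.22% of untransfected miRNAs at least as far from 1. In the mutant 2 library its ratio was 0.864 (0.676 to 1.10).

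**Figure D2:**
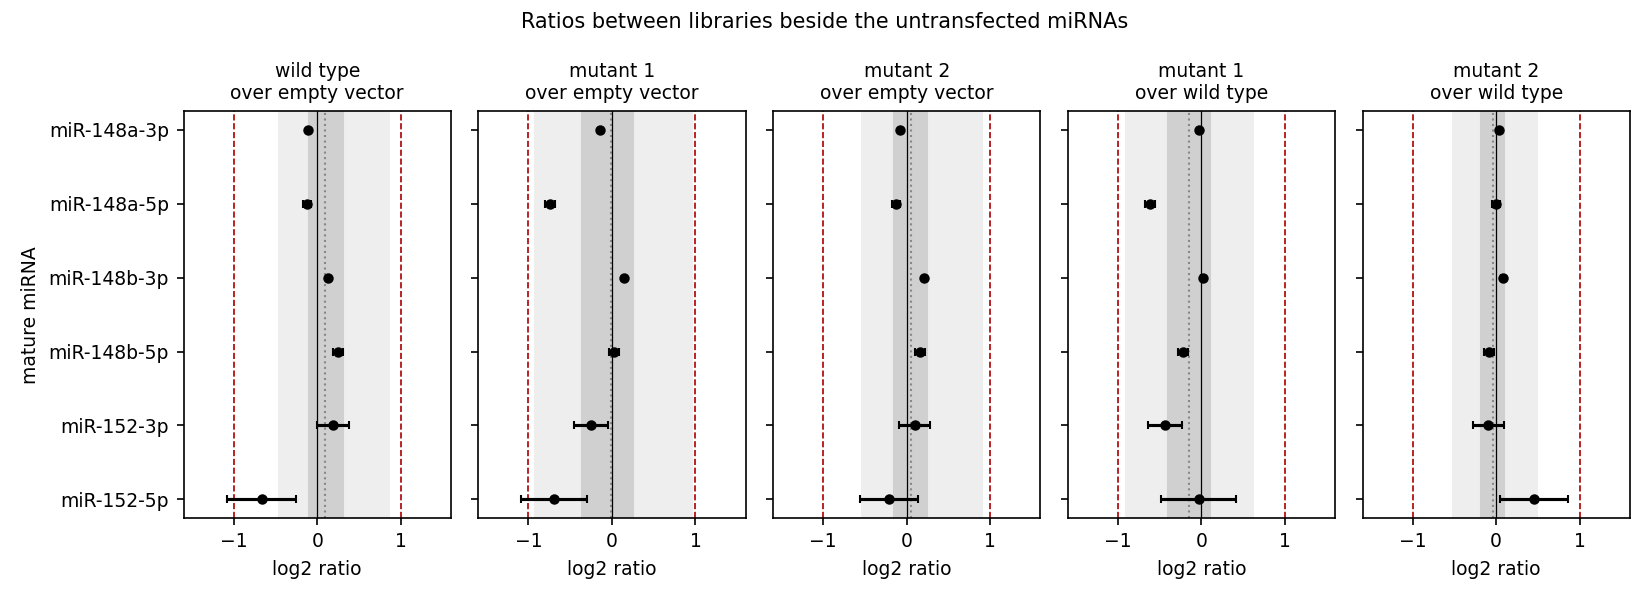
Log2 ratio of each arm between 2 libraries, from RPM, with 95% counting intervals; the grey bands hold the middle 50% and 95% of untransfected miRNAs averaging 50 or more reads, the dotted line is their median and the dashed lines mark 2-fold. All 5 members lie between the dashed lines in each panel, and miR-148a-5p is farthest left of them in both mutant 1 panels (-0.74 and -0.62).

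The likeness of profiles was measured as the root mean square distance of log2 levels, centred over the 4 libraries, among 474 candidates. The nearest miRNAs to miR-148a-3p were miR-548e-5p (distance 0.018) and miR-2467-5p (0.030). Those nearest to miR-148b-3p were miR-92a-1-5p (0.017) and miR-34a-5p (0.022), and those nearest to miR-152-3p were miR-106b-5p (0.026) and miR-3664-3p (0.027). The median distance was 0.18 to 0.20. With 4 libraries and small differences between them, such distances describe these libraries only.

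Arm use was compared within each locus, where both arms come from the same hairpin and no scaling enters. At MIR148A there were 38.4 reads of the 3p guide per read of the 5p passenger with the empty vector (95% interval, 37.5 to 39.3), 38.7 (37.7 to 39.7) in the wild-type, 58.3 (56.6 to 60.1) in the mutant 1 and 39.8 (38.9 to 40.8) in the mutant 2 library. The mutant 1 library stood apart, and the other 3 lay between 38.4 and 39.8. At MIR148B the values were 13.99 (13.5 to 14.5), 12.9 (12.5 to 13.3), 15.2 (14.7 to 15.7) and 14.5 (14.04 to 14.9) in the same order. At MIR152 they were 3.20 (2.63 to 3.90), 5.79 (4.53 to 7.39), 4.37 (3.45 to 5.54) and 3.96 (3.26 to 4.81). The 3p arm thus had 97.5 to 98.3% of the reads at MIR148A, 92.8 to 93.8% at MIR148B and 76.2 to 85.3% at MIR152. The values depended on which reads were counted, since most miR-148b-5p reads and many miR-152-5p reads start upstream. With reads at the annotated 5p start only, the values at MIR148B were 62.4, 64.1, 78.1 and 69.7 in the same order, above 40.4, 40.6, 61.7 and 41.9 at MIR148A. The wild-type library was then no longer below the empty vector one at MIR148B. MIR152 had 6.01, 8.86, 8.93 and 9.30 with such reads.

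Among 250 to 254 untransfected miRNAs with both arms and at least 50 reads in a library, the 3p arm had more reads than the 5p arm in 44.1 to 44.4%. With the empty vector, 82.5% of the other pairs had a lower 3p share than MIR148A, 73.4% a lower share than MIR148B and 62.7% a lower share than MIR152. The shift of MIR148A between mutant 1 and wild type, a 1.51-fold higher ratio of 3p to 5p reads (1.45 to 1.57), was equalled or exceeded in size by 27 of 120 other pairs (22.5%). Against the empty vector library it was 1.52-fold (1.46 to 1.58), and 50 of 120 pairs (41.7%) moved at least as far. The other pairs averaged at least 50 reads in each arm over the libraries compared. Counting error is part of the shifts of the sparser pairs, and a higher minimum was not tried. For MIR152 the wild-type library was 1.81-fold above the empty vector library (1.32 to 2.48), a shift that 11 of 121 pairs (9.09%) reached, and the mutant 2 library was at 0.684 of the wild-type library (0.501 to 0.936), which 7 of 123 pairs (5.69%) reached. Neither shift at MIR152 was clear of counting error with reads at the annotated 5p start only, where the first was 1.47-fold (0.997 to 2.18) and the second turned to 1.05 (0.698 to 1.58). The ratio of mutant 1 to wild type at MIR148A was 1.52 (1.46 to 1.58) with these reads.

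The seed of a read depends on where it starts. The table gives 5p and 3p offsets without stating their sign. Of the 4 possible readings, one put all 10981 isoforms with a RefSeq length inside the 18 to 26 nt window of the reads, namely a positive 5p offset as a later start and a positive 3p offset as a shorter read, and the others put 84.5 to 93.3% inside. This reading was used, and in what follows "longer" means past the annotated 3p-end. Since the table holds no read sequences and mismatches were tolerated at the 3p-end, an added base and a base copied from the hairpin cannot be told apart.

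The 5p starts of the guides, on the side that DICER cuts, were nearly uniform. miR-148a-3p began at its annotated base in 99.6% of its reads in all 4 libraries (99.56 to 99.61%). miR-148b-3p did so in 99.77% of both the empty vector and the wild-type reads, 99.83% in the mutant 1 and 99.82% in the mutant 2 library. miR-152-3p did so in 415 of 416, 434 of 434, 366 of 367 and 502 of 503 reads. Starts 1 nt later, the most frequent other class for miR-148a-3p, made up 0.314 to 0.344% of its reads. Of the untransfected 3p miRNAs with at least 50 reads, the median share at the annotated start was 93.4% with the empty vector (n = 204), and 92.1%, 94.1% and 93.6% of the others had a lower share than miR-148a-3p, miR-148b-3p and miR-152-3p. Among 24 other 3p guides of a list of 25, the median was 98.1%. There miR-107 (99.60%) was next above miR-148a-3p and miR-27b-3p (99.42%) next below, and miR-27a-3p (99.74%) was next below both miR-148b-3p and miR-152-3p.

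The 5p starts of the passengers, on the side that DROSHA cuts, were less uniform and differed between the loci. miR-148a-5p began at its annotated base in 94.7% of empty vector reads, 94.9% in the wild-type, 94.2% in the mutant 1 and 94.6% in the mutant 2 library, and 1 nt upstream in 4.87 to 5.62%. miR-148b-5p began at its annotated base in only 22.4% (21.1 to 23.7%), 20.05%, 19.4% and 20.7% of reads in the same order. Most of its reads, 76.9%, 79.3%, 79.8% and 78.6%, began 1 nt upstream. Only 8.96% of the other untransfected 5p miRNAs had a smaller share at the annotated start with the empty vector, where the median was 97.4% (n = 202). For miR-148a-5p that value was 41.3%. By the share of the most frequent start, wherever it lies, 18.4% of the others were below miR-148b-5p with the empty vector. miR-152-5p was split, with 53.1% of 130 empty vector reads at the annotated start, 65.3% of 75 in the wild-type, 48.8% of 84 in the mutant 1 and 42.5% of 127 in the mutant 2 library, and nearly all others 1 nt upstream. The intervals of the empty vector (44.5 to 61.4%) and mutant 2 (34.3 to 51.2%) libraries overlapped, whereas that of the wild-type library (54.1 to 75.1%) did not reach the mutant 2 one.

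The most frequent isoforms of the arms whose usual ends were not the annotated ones are given with the hairpin's bases and the seed in capitals. Isoforms were ordered over all libraries together. For miR-152-5p the annotated isoform was then first, and the second is given.
miR-148a-3p, 1 nt longer, 23 nt: uCAGUGCAcuacagaacuuuguc
miR-152-3p, 1 nt longer, 22 nt: uCAGUGCAugacagaacuuggg
miR-148b-5p, 1 nt upstream and 1 nt longer, 24 nt: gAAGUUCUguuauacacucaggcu
miR-152-5p, 1 nt upstream, 24 nt, the second isoform: cAGGUUCUgugauacacuccgacu

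The upstream start gives miR-148b-5p the seed AAGUUCU in place of AGUUCUG. The annotated seed is shared with miR-6874-3p in the RefSeq table, and none of the other mature sequences had the shifted one. The 24 nt isoform made up 68.9% of the 17201 miR-148b-5p reads of the 4 libraries together, the 23 nt one with the annotated start and the longer 3p-end 18.5%, and the annotated isoform of 22 nt was not among the 3 most frequent. For miR-152-5p the annotated isoform had 50.5% of 416 reads and the upstream one, with the seed AGGUUCU in place of GGUUCUG, 48.1%. The upstream isoform had more reads than the annotated one in the mutant 1 (43 against 41) and mutant 2 (71 against 52) libraries. It had fewer in the empty vector (61 against 68) and wild-type (25 against 49) libraries.

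The 3p-ends of the guides differed between the family members. miR-148a-3p ended 1 nt past its annotated end in 54.3% of empty vector reads, 52.0% in the wild-type, 52.2% in the mutant 1 and 53.9% in the mutant 2 library. It ended at the annotated base in 41.9%, 44.2%, 44.03% and 42.3%, and 2 nt past it in 2.70 to 2.71%. miR-148b-3p, which has the same last 12 bases as annotated, ended at its annotated base in 95.2%, 94.5%, 95.2% and 94.96% of reads, and 1 nt past it in only 1.17%, 0.945%, 0.819% and 0.842%. miR-152-3p ended 1 nt past its annotated end in 72.8% (68.4 to 76.9%), 67.1% (62.5 to 71.3%), 67.3% (62.3 to 71.9%) and 71.6% (67.5 to 75.3%) of reads. As the annotated miR-152-3p has 21 nt and the others 22, the usual length was 22 nt for miR-148b-3p and miR-152-3p, and 23 or 22 nt for miR-148a-3p.

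With the empty vector, 91.6% of the other untransfected 3p miRNAs had a less dominant 3p-end than miR-148b-3p, but 23.2% a less dominant one than miR-148a-3p and 54.2% than miR-152-3p. The median share of the most frequent 3p-end was 70.8% (n = 204), and 58.7% in the list of other 3p guides. In that list miR-103a-3p (95.5%) was next above miR-148b-3p and miR-301a-3p (94.3%) next below, whereas miR-203a-3p (57.2%) and miR-92a-3p (54.1%) were the neighbours of miR-148a-3p.

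The longer form of miR-148a-3p was less frequent in the wild-type than in the empty vector library by 2.39 percentage points (95% interval, 2.11 to 2.67) and in the mutant 1 library by 2.10 points (1.83 to 2.37), and in the mutant 2 library by 0.448 points (0.186 to 0.710). The empty vector and mutant 2 libraries were thus high and the wild-type and mutant 1 libraries low. Of 196 other untransfected 3p miRNAs, 26.5% changed by at least as many points between the wild-type and empty vector libraries, and the shares were 34.4% for mutant 1 and 57.9% for mutant 2. For miR-152-3p the intervals of all 3 differences from the empty vector library included 0. The order was another one for miR-148b-3p, whose small share 1 nt past the annotated end was lower than with the empty vector by 0.225 points (0.103 to 0.346) in the wild-type, 0.351 points (0.237 to 0.466) in the mutant 1 and 0.329 points (0.216 to 0.441) in the mutant 2 library. Of the other untransfected 3p miRNAs, 62.8%, 61.5% and 61.9% changed by at least as many points in these comparisons. The wild-type and mutant 1 libraries were also the ones with the lowest share of untransfected reads (70.5% and 70.7%), and the part of this in the end shares was not tested.

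The 3p-ends of the passengers were mostly at a single position. miR-148a-5p ended at its annotated base in 95.4%, 95.2%, 96.3% and 95.3% of reads in the empty vector, wild-type, mutant 1 and mutant 2 libraries. miR-148b-5p ended 1 nt past its annotated end in 87.4%, 86.3%, 89.7% and 88.4%. Over the 4 libraries this end was found in 87.6% (87.0 to 88.1%) of the reads that start 1 nt upstream and in 89.9% (88.9 to 90.9%) of those with the annotated start, and it was more frequent with the annotated start in each library. miR-152-5p ended at its annotated base in 129 of 130, 74 of 75, 84 of 84 and 123 of 127 reads.

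DROSHA and DICER cuts leave 3p overhangs of 2 nt, and the ends were set against the predicted folds of MIR148B and MIR152. For MIR148B, the usual upstream start of the 5p arm and the annotated end of the 3p arm gave an overhang of 2 nt, and the annotated start gave 3 nt. On its loop side, the usual longer end of miR-148b-5p gave 2 nt, and the annotated end 1 nt. For MIR152, an overhang of 2 nt came from the annotated start with the annotated 3p-end and from the upstream start with the longer 3p-end, whereas the upstream start with the annotated 3p-end gave 1 nt and the annotated start with the longer 3p-end 3 nt. On its loop side the annotated ends gave 2 nt. The upstream start had 48.3% of the miR-152-5p reads of the 4 libraries and the longer end 69.8% of the miR-152-3p reads, so that the shares of the ends in either pair were not equal. As the arms were read from separate molecules, which ends had been paired in 1 duplex cannot be told from these data. The overhangs also take the longer 3p-ends as bases of the hairpin, and an added base cannot be told apart from these. No overhang was computed for MIR148A, since the RefSeq table held no sequence of miR-148a-5p.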

How the data were processed

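The authors trimmed adapters with cutadapt, kept reads of 18 to 26 nt of sufficient quality, aligned them to hg38 with Bowtie2 and assigned to miRBase v22 the unambiguous reads whose mismatches, if any, lay at the 3p-end. The deposited values are raw read counts per isoform, without normalization. Counts were added over isoforms and divided by the reads of miRNAs that no plasmid encodes. Shares have Wilson 95% intervals, levels exact Poisson intervals and ratios normal intervals on the log scale. A difference of more than 2-fold was counted as a call, for miRNAs that averaged 50 or more reads. No test was run, since each group had 1 library.

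The miRNAs named are the 5 members, the 2 most alike miRNAs of each guide, miR-16-5p and, from a list of 25 other 3p guides, those next to a member. miR-152-5p, miR-6874-3p, which shares a seed, and miR-200c-3p and miR-141-3p, as a check of the cell type, were named after the table was seen. The members and lists were chosen with earlier results of these data known. In the list of 25, 24 had at least 50 reads with the empty vector; 0, 2, 0, 0 and 0 of them were more than 2-fold higher, and none lower, in the 5 comparisons in the order given.

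Sequences and positions are from RefSeq tables of GRCh38.p14 and GENCODE release 44. Folds were predicted with RNAfold 2.7.2. Alternatives were scaling by miR-16-5p, by all reads, by edgeR 4.0.16 TMM or DESeq2 1.42.0 median of ratios (R 4.3.3), a pseudocount of 1, minimums of 10 and 200 reads or none, and restricted sets of isoforms. Python 3.11.15, pandas 2.3.3, numpy 2.4.6, scipy 1.17.1 and matplotlib 3.10.9 were used. The fold calls and the Wilson intervals were tried on simulated counts with planted changes and counting error only. Further scatter between libraries was not simulated, so these runs do not show how the calls behave under it.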

Additional observations from a re-analysis of the deposited data

How the results depend on the processing

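The count of members past 2-fold was 0 in all 5 comparisons with TMM, the median of ratios, a pseudocount of 1 read and reads at the annotated 5p start only. With scaling by miR-16-5p reads, 2 members were past 2-fold between wild type and empty vector, 4 between mutant 1 and empty vector and 5 between mutant 2 and empty vector, all lower. By this scaling 43.3%, 56.9% and 78.8% of the untransfected miRNAs were past 2-fold in these comparisons, and 1.04% between mutant 2 and wild type. miR-16-5p had 226727 reads with the empty vector and 425441 to 628912 in the libraries with a pri-mir-16-1 plasmid. With scaling by all reads, 1 member (miR-148a-5p, ratio 0.460) and 9.98% of untransfected miRNAs were past 2-fold between mutant 1 and empty vector.

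The share of untransfected miRNAs past 2-fold depended on the read minimum. In the order wild type, mutant 1 and mutant 2 over empty vector, then mutant 1 and mutant 2 over wild type, it was 8.02%, 11.3%, 7.17%, 9.34% and 6.91% with a minimum mean of 10 reads, and 19.4%, 22.3%, 20.1%, 21.0% and 19.2% with none beyond 1 read in each library. With a minimum of 200 reads it moved by over 1.5 times in wild type over empty vector (0.329%), mutant 1 over empty vector (1.98%), mutant 1 over wild type (0.324%) and mutant 2 over wild type (0%).

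The family composition moved by less than its interval with reads at the annotated 5p start only. With the empty vector, the 3p arm share became 97.6% (MIR148A), 98.4% (MIR148B) and 85.7% (MIR152) with such reads, and 95.8%, 95.2% and 81.6% with the most frequent isoform of each arm. The reads at the annotated start thus put MIR148B above MIR148A, as they drop most miR-148b-5p reads, which start upstream. The changes in 3p reads per 5p read were recomputed with both restrictions, a choice made after seeing the data. With reads at the annotated start, the ratio of wild type to empty vector at MIR148B turned from 0.921 to 1.03, and that of mutant 2 to wild type at MIR152 from 0.684 to 1.05. With the most frequent isoforms they were 0.896 and 0.851. The start share became 99.65% for miR-148a-3p and 99.83% for miR-148b-3p among reads that start within 1 nt. The share of the longer 3p-end of miR-148b-5p became 89.3% with the annotated start only. The annotated 3p-end itself had 41.9% of miR-148a-3p, 11.5% of miR-148b-5p and 23.3% of miR-152-3p reads. No paired analysis was possible because each group had 1 library, and for the same reason no replicate could be left out. Depth limits the values of miR-152-3p and miR-152-5p most.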
